A study of Mus musculus with 15 samples.

Results

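The neurotrophins and their receptors were taken as 8 mouse genes: the ligands Bdnf, Ntf3 and Ntf5, the receptors Ntrk2, Ntrk3 and Ngfr, and the sortilin-family co-receptors Sort1 and Sorcs2. Every CpG site measured inside these genes or within 5 kb of them was included, also where only part of the mice had a value. A site is 1 cytosine on 1 strand, so a CpG read on both strands gives 2 sites. There were 438 such sites among 455836 CpG sites measured in all, 384 inside the genes and 54 beside them, and 100 of the 438 had a value in all 15 mice. The assay was reduced representation bisulfite sequencing (RRBS), which sequences CpG-rich restriction fragments after bisulfite has converted unmethylated cytosines. The tissue was dissected dentate gyrus, the part of the hippocampus where granule neurons are born and receive cortical input. All mice were female C57BL/6JRj aged 7.5 months, with 5 mice in each of 3 housing groups. Standard mice spent 6 months in standard cages, enriched mice 6 months in an enriched environment, and withdrawal mice 3 months in enrichment followed by 3 months in standard cages. The tissue was not sorted, so each percentage is an average over all cell types in the dissection, and it cannot be told apart whether a difference comes from methylation within cells or from the mix of cells. The data hold no expression values, so the tissue label was not checked against marker genes.

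Neurotrophins are secreted growth factors that are cut from longer proforms. The mature forms act through receptor tyrosine kinases: the products of Bdnf and Ntf5 bind TrkB, the product of Ntrk2, and the product of Ntf3 binds mainly TrkC, the product of Ntrk3. Ngfr encodes the p75 receptor, which binds mature neurotrophins and, together with sortilin or SorCS2, the proforms. In the hippocampus this signalling is known for its part in synaptic plasticity and neuron survival, and Bdnf expression is known to respond to activity and enrichment. Bdnf is transcribed from several starts, each with its own first exon joined to a shared coding exon. CpG-dense stretches around gene starts usually carry little methylation, while CpGs in gene bodies are often highly methylated.

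The stretches just before annotated starts in which several CpGs were measured are shown first, since they carry the low methylation described below. The capitals mark the CpGs with a measured site, the sequences are from RefSeq on assembly GRCm38.p6, and each is 250 bases long and ends at the base before the start. Bdnf has 7 starts in that table, Ntf3 2, Ntrk2 1 and Ngfr 1. Those printed lie on the plus strand of chromosome 2 for Bdnf, at chr2:109692777-109693026 and chr2:109694159-109694408, and on the minus strand of chromosome 6 for Ntf3, at chr6:126164961-126165210 and chr6:126166745-126166994.
Bdnf, start at 109693027: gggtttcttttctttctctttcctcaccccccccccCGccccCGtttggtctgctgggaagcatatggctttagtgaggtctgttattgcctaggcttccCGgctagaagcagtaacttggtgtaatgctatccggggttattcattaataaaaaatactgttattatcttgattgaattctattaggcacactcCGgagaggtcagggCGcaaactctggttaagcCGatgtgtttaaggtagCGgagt
Bdnf, start at 109694409: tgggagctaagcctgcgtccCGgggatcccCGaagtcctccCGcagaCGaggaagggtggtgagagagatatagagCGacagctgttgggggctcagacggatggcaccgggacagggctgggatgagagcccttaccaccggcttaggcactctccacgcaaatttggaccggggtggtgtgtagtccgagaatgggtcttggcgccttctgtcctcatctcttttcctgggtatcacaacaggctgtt
Ntf3, start at 126164960: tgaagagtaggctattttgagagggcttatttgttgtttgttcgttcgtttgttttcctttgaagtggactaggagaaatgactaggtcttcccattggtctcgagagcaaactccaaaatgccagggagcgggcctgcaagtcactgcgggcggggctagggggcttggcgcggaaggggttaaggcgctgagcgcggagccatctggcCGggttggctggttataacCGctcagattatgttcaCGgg
Ntf3, start at 126166744: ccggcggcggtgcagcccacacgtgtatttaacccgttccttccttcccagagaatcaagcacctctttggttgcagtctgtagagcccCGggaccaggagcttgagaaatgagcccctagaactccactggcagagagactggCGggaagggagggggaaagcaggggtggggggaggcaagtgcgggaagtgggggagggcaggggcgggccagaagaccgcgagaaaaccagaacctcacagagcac
In the first Bdnf stretch 7 of 8 CpGs were measured, with site means of 0% to 8.23% over the mice, and in the second 5 of 13 CpGs, with site means of 0% to 9.11%. In the Ntf3 stretch before 126164960, 3 of 14 CpGs were measured, at 0% to 1.67%, and in the one before 126166744, 2 of 11 CpGs, at 1.74% and 7.37%. Each of 3 letter patterns was searched on both strands. CCGG, the sequence cut by the enzyme commonly used for RRBS, occurred 3, 4, 1 and 2 times in the 4 stretches in the order printed, and 47.3% of 32619 stretches of the same length before annotated mouse starts hold it. TGACG or CGTCA, the core of the cyclic AMP response element, occurred in none of the 4 (17.9% of all stretches), and CACGTG, an E-box, occurred once, in the Ntf3 stretch before 126166744 (6.06% of all stretches). Measured sites within CCGG had higher means than other measured CpGs in the windows from 250 bases before to 50 after a start. The 5 such sites of these genes averaged 5.12% against 1.74% for the other 18, and over all genes 8064 sites averaged 9.49% against 3.08% for 32006.

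Depth was not available, because the table gives percentages without read counts, so no interval from counting error can be given. The number of the 438 sites with a value ran from 278 (63.5%) in standard mouse 1 and 318 (72.6%) in enriched mouse 1 to 431 (98.4%) in withdrawal mouse 4, and lay between 341 and 401 in the other mice. Where a CpG was measured on both strands, the strands come from different reads and their difference shows the measurement error. Over 35 such CpGs of these genes the strands differed by 7.27 percentage points on average, by 4.28 points at 30 CpGs under 20% and by 23.4 points at 5 CpGs between 20% and 80%. Over all 29826 such CpGs of the table the averages were 7.85, 4.64 and 26.3 points.

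Of the 438 sites, 309 (70.5%) averaged under 20% over the mice, 80 (18.3%) fell in the range of 20% to 80%, and 49 (11.2%) exceeded 80%. Over the 321022 CpG sites of all protein-coding genes with 5 kb on either side these shares were 65.1%, 14.7% and 20.2%. The 8 genes differed widely. Bdnf was almost free of methylation at the sites measured. Ntf3, Ntrk3, Ngfr and Sort1 combined stretches of low methylation toward a gene end with more methylated sites elsewhere. Ntrk2, Sorcs2 and Ntf5 had sites at every level.

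**Figure D1:**
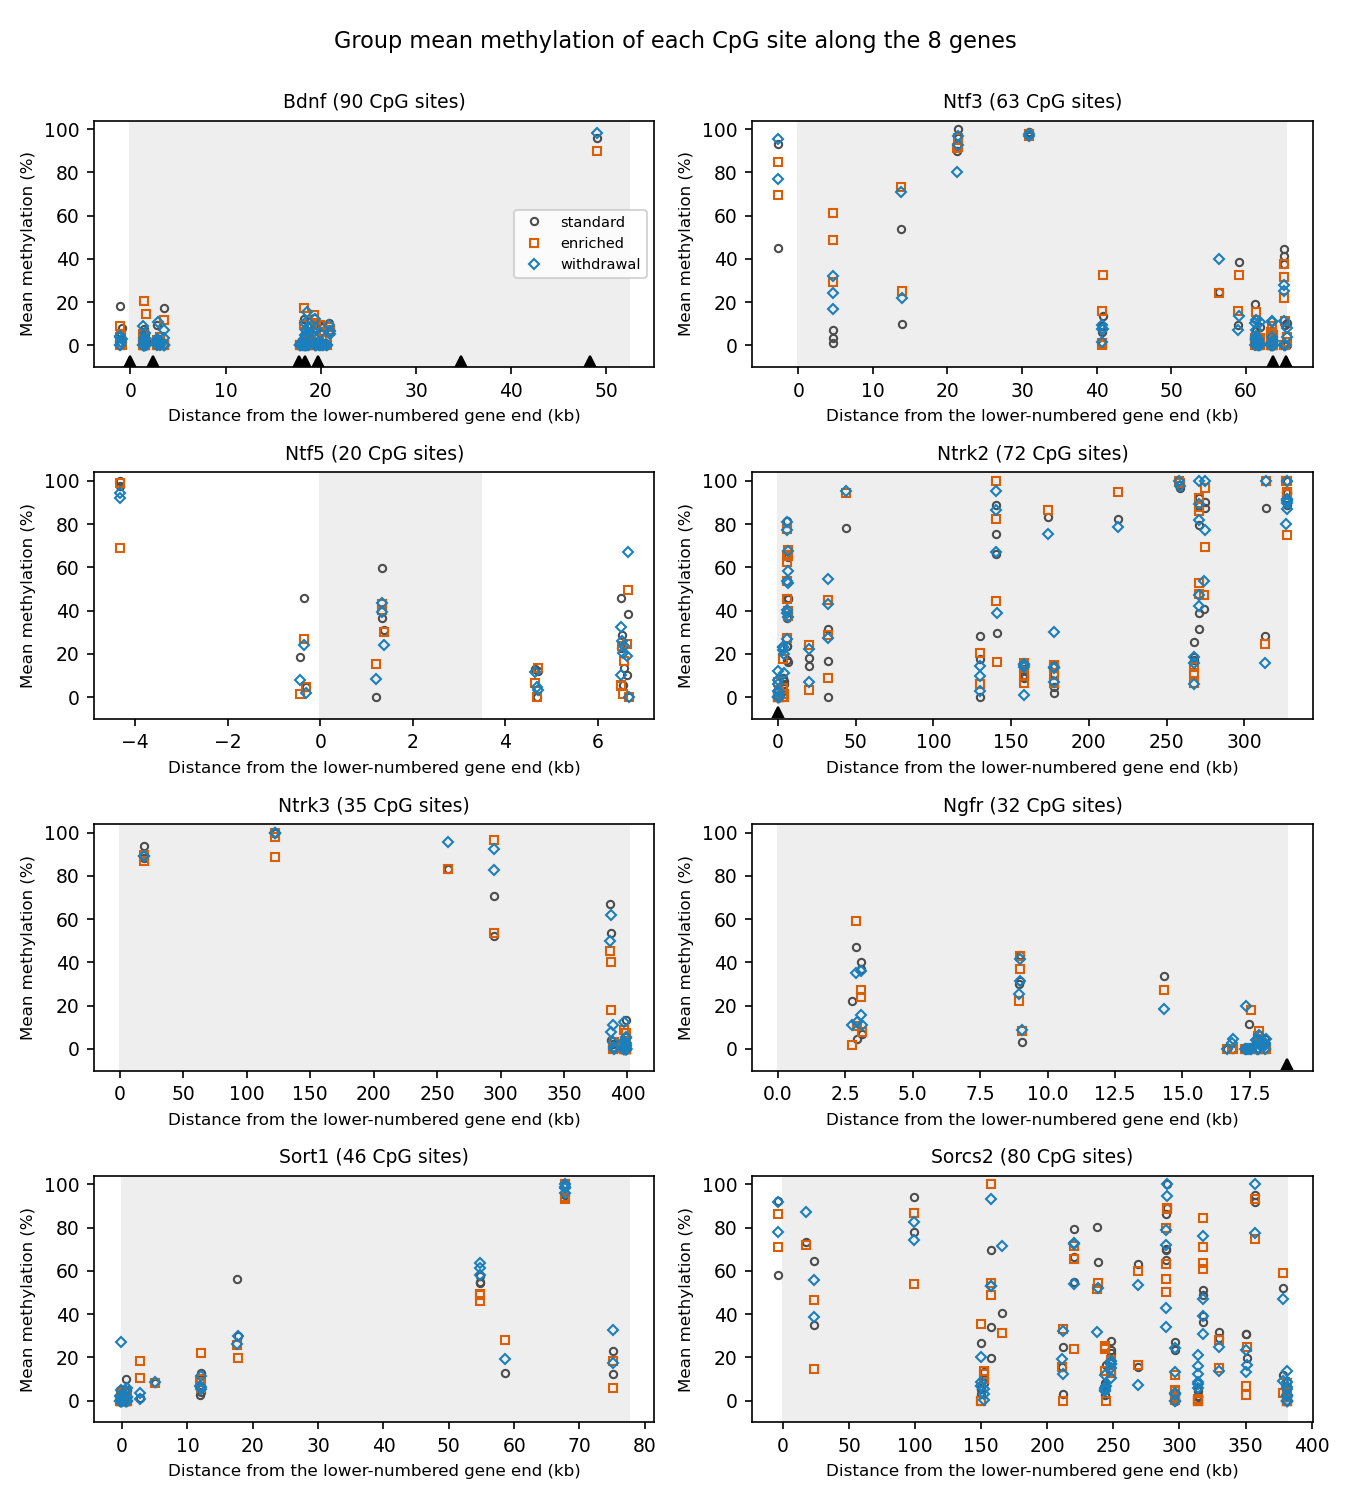
Mean methylation (%) of each CpG site in each housing group (circles standard, squares enriched, diamonds withdrawal) against its distance in kb from the lower-numbered end of the gene. Grey marks the gene and triangles the annotated starts in the table used, which has none for Ntf5, Ntrk3, Sort1 and Sorcs2; 89 of 90 Bdnf sites lie under 20%, while Ntrk2 and Sorcs2 span all levels.

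**Figure D2:**
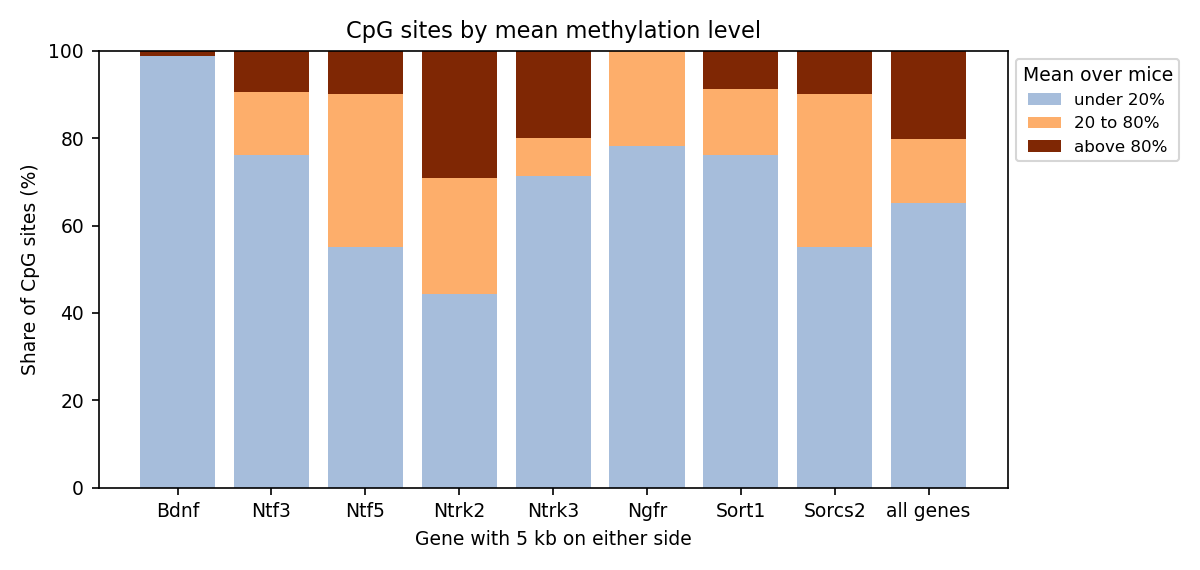
Share of CpG sites (%) with a mean over the mice under 20%, between 20% and 80%, and above 80%, for each gene with 5 kb on either side and for all protein-coding genes. Ntrk2 has the largest share above 80% of the 8 (29.2%) and Ngfr has none.

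The study asks what enrichment changed and what remained after the return to standard cages, and across these genes no site, group of sites or gene passed the test in any of the 3 comparisons. limma, fitted to all CpG sites of the table that had 3 or more values per group and a range of at least 5 points, tested 342 of the 438 sites (96 varied by less than 5 points) and called 0 at an adjusted p under 0.05. Over the whole table it called 0 of 350663 sites in each comparison, a share of 0.0%. At an unadjusted limma p under 0.05 enriched against standard gave 17 member sites (4.97%), withdrawal against standard gave 14 (4.09%) and withdrawal against enriched gave 10 (2.92%), beside 4.67%, 4.3% and 4.18% of all sites. The shares in the 8 genes were thus near those of the whole table. Neighbouring sites at most 100 bases apart were also averaged, using the sites that no mouse lacked, where there were at least 3. Of 17 such groups in these genes limma called 0 every time, and 2, 0 and 1 had an unadjusted p under 0.05, beside 0.0% called and 5.51%, 4.82% and 4.42% at that p among 15326 groups in all. One mean per gene over its sites with a value in all mice could be tested for 6 of the 8 genes (not Ntf5 and Ntrk3, which had 1 and 2 such sites). limma called 0 of the 6 every time, and 0 had an unadjusted p under 0.05, beside 0.0% called and 5.88%, 5.07% and 4.6% at that p among 9257 genes. The median difference over the 342 sites was 0 points (enriched minus standard), 0.72 (withdrawal minus standard) and 0.53 (withdrawal minus enriched), beside 0 over all sites each time.

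**Figure D3:**
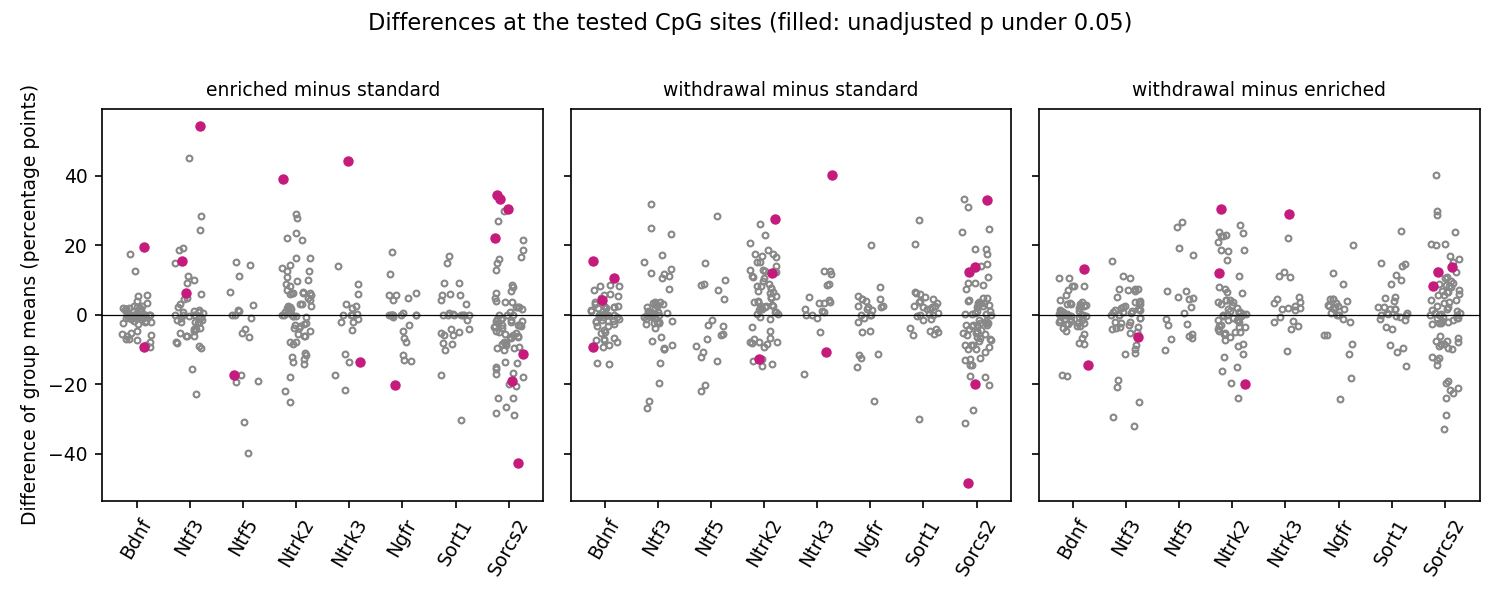
Difference between group means in percentage points at each of the 342 tested CpG sites, by gene, for the 3 comparisons. Filled points have an unadjusted limma p under 0.05 (17, 14 and 10 sites), lie on both sides of 0, and none passed after adjustment.

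Bdnf, which encodes brain-derived neurotrophic factor (chromosome 2, 109674700 to 109727043), had 90 sites, and 89 of them averaged under 20%. Its mean over sites was 3.34%, and 32 sites were at 0% in every mouse with a value. The sites fell into one stretch around the lower-numbered starts (109673563 to 109678250) and another around the middle starts (109692497 to 109695671). Within 500 bases of the starts at 109677032, 109692436, 109693027 and 109694409 the site means averaged 1.47% (5 sites), 1.09% (9 sites), 1.88% (26 sites) and 2.92% (16 sites), and the other 3 starts had no measured site within 500 bases. The exception was 1 site at 109723685, 764 bases beyond the start at 109722921, which averaged 94.7% (standard 96%, enriched 89.9%, withdrawal 98.2%).

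The Bdnf mean over the 26 sites with a value in all mice was 5.56%, 1.39%, 4.37%, 1.81% and 3.0% in the 5 standard mice. It was 3.85%, 1.49%, 3.87%, 2.97% and 4.05% in the enriched and 3.34%, 2.0%, 1.53%, 1.59% and 3.06% in the withdrawal mice. The 3 groups overlapped: 3.23% ± 1.75, 3.24% ± 1.07 and 2.30% ± 0.842 (SD, n = 5). Enriched minus standard was 0.0187 points, withdrawal minus standard -0.922 and withdrawal minus enriched -0.940 points (limma adjusted p 0.992, 0.975 and 0.989). The withdrawal minus standard difference was -0.337 points without standard mouse 1. Over all 90 sites, each centred on its mean over the groups, withdrawal was -0.213 points from standard and -0.153 from enriched. The group of 15 sites at 109692717 to 109693148, which reaches across the start at 109693027, averaged 3.49% ± 4.21, 2.63% ± 1.67 and 1.03% ± 0.318 over its 4 sites with a value in all mice (limma adjusted p 0.979, 0.998 and 0.996). The standard mean there included 10.9% in standard mouse 1, the mouse with values at the fewest sites, while the other standard mice were at 0.794% to 2.27%. The withdrawal minus standard difference was -2.45 points with this mouse and -0.590 points without it. The group with the most such sites, 109676029 to 109676311 with 10, averaged 1.24% ± 1.52, 2.29% ± 2.35 and 0.874% ± 0.9796 (limma adjusted p 0.938, 0.998 and 0.996).

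The Bdnf site with the smallest limma p lay on the plus strand at 109693291, 264 bases after the start at 109693027. It read 0% in all 5 standard mice, 0%, 8.33%, 0% and 0% in 4 enriched mice, and 9.52%, 0%, 6.98%, 19.4% and 41.2% in the withdrawal mice. Standard and withdrawal mice overlapped at 0%, and 4 of 5 withdrawal mice lay above every standard mouse. The withdrawal mean exceeded the standard mean by 15.4 points, a log2 ratio difference of 1.91 ± 0.61 (SE), with an unadjusted limma p of 0.00568 and an adjusted p of 0.911. Without withdrawal mouse 5, the highest, it was 8.96 points. The 3 neighbouring plus-strand sites, 7 to 44 bases further on, were at 0% in 39 of 42 values. The whole stretch of 8 sites on both strands had group means of 0.294% (standard), 0.805% (enriched) and 5.07% (withdrawal). With all 8 sites, centred, withdrawal exceeded standard by 4.43 points (unadjusted limma p 0.0303, adjusted p 0.977).

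Ntf3, the gene of neurotrophin-3 (chromosome 6, 126101412 to 126166772, read from the minus strand), had 63 sites with a mean of 17.1%, 48 of them under 20%. The 16 sites within 500 bases of the start at 126164960 averaged 1.39% and none exceeded 6.58%. Around the upstream start at 126166744 the 8 sites averaged 13.6%, and among them the 4 at 126166453 to 126166508 averaged 23.3% and reached 35.6%. Away from the starts, the 2 sites at 126132330 and 126132343 averaged 97.4% and the 3 at 126122742 to 126122861 averaged 92.7%, while the 4 at 126142123 to 126142232 between them and the starts averaged 8.80%.

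Over 15 sites the Ntf3 mean was 19.9%, 20.04%, 18.1%, 20.4% and 19.7% in standard mice, 21.4%, 20.8%, 18.0%, 24.9% and 22.5% in enriched mice, and 18.7%, 25.2%, 21.7%, 21.2% and 23.4% in withdrawal mice. Of the enriched mice 4 of 5 lay above every standard mouse and 1 below, and of the withdrawal mice 4 of 5 lay above and 1 among them. The means were 19.6% ± 0.880, 21.5% ± 2.49 and 22.0% ± 2.43 (SD, n = 5), so that enriched exceeded standard by 1.92 points and withdrawal by 2.40 points (limma adjusted p 0.906 and 0.973). Both differences were larger than the SD of the standard mice and smaller than the SDs of the enriched and withdrawal mice. Without enriched mouse 4 the enriched difference was 1.08 points, and over all sites, centred, the withdrawal difference was 0.916 points. The group of 8 sites at 126162986 to 126163089 averaged 1.92% ± 2.32, 1.18% ± 2.63 and 1.91% ± 1.51 over 4 sites, and the group of 10 at 126162569 to 126162809 averaged 4.07% ± 4.79, 1.69% ± 2.37 and 4.32% ± 7.60 over 3 sites (limma adjusted p of at least 0.941 in each comparison of both). The smallest p was at 126106018 on the plus strand, with values in 10 mice. It read 11.1%, 2.94% and 7.14% in 3 standard mice, 100%, 17.4% and 66.7% in 3 enriched mice, and 58.3%, 20%, 50% and 0% in 4 withdrawal mice. The 3 enriched values lay above the 3 standard values, by 54.3 points on average (unadjusted limma p 0.0262, adjusted p 0.892) and by 34.96 points without enriched mouse 1, which read 100%. The 2 further plus-strand sites within 40 bases averaged 18.1% and 22.9%.

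Ntf5 encodes neurotrophin-4 (chromosome 7, 45413695 to 45417179). Of its 20 sites 4 lay inside the gene, and 13 lay inside the neighbouring genes Kcna7, Lhb or Ruvbl2, so most of these sites belong to more than Ntf5. Site means ran from 0% to 96.2% with an average of 27.0%. The 3 sites at 45415020 to 45415084 inside the gene averaged 38.7%, the 3 at 45413252 to 45413386 just below it 15.2%, and the 2 at 45409356 and 45409374 were at 92.0%. At 45413252 on the plus strand, 443 bases outside the gene, standard mice read 50%, 4.0%, 8.70%, 30.6% and 0%, enriched mice 0%, 0%, 0%, 6.85% and 0%, and withdrawal mice 0%, 25.8%, 0%, 0% and 14.8%. All 3 groups overlapped at 0%. The enriched minus standard difference was -17.3 points (unadjusted limma p 0.0418, adjusted p 0.892), and -9.46 points without standard mouse 1. Over all 20 sites, centred, enriched was -5.46 points and withdrawal -2.98 points from standard (unadjusted limma p 0.0684 and 0.323, adjusted p 0.819 and 0.965).

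Ntrk2, the TrkB receptor that binds the Bdnf and Ntf5 products (chromosome 13, 58806472 to 59133970), had 72 sites, all inside the gene. They averaged 40.5%, with 32 under 20%, 19 between 20% and 80% and 21 above 80%. The 8 sites within 500 bases of the start at 58806569 averaged 1.62%, and the 4 sites at 58807202 to 58807253 averaged 0.619%. About 6.13 kb into the gene the 8 sites at 58812604 to 58812746 averaged 44.2%, with site means from 23.9% to 65.9%, and the 2 just before them at 58812470 and 58812471 averaged 72.9%. At the far end the 7 sites at 59133605 to 59133738, the last of them 0.232 kb from the upper gene end, averaged 93.4%.

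The Ntrk2 mean over 19 sites was 32.5%, 34.3%, 37.0%, 39.0% and 43.9% in standard mice, 42.4%, 35.9%, 38.7%, 37.4% and 39.1% in enriched mice, and 37.9%, 41.0%, 41.0%, 39.1% and 39.3% in withdrawal mice. Every enriched and withdrawal mouse lay within the range of the standard mice. The means were 37.3% ± 4.43, 38.7% ± 2.42 and 39.6% ± 1.35 (SD, n = 5), with differences of 1.36 points for enriched and 2.34 points for withdrawal against standard (limma adjusted p 0.946 and 0.973). Leaving out each mouse in turn gave 0.153 to 3.0 points for enriched and 1.13 to 3.98 for withdrawal, the lowest without standard mouse 1 and the highest without standard mouse 5. Among the 65 tested sites 48 had a higher mean in withdrawal than in standard mice and 17 a lower one, so 73.8% were higher, beside 52.6% of all tested sites with unequal means. The share over the sites of all 8 genes was 56.4%, and the other genes ran from 36.8% (Ntf5) to 77.8% (Ntrk3). The median difference over the 65 sites was 4.78 points. Neighbouring sites share reads, so these are not independent counts and were given no test. With all 72 sites, each centred on its mean over the groups, the gene mean was 38.1% ± 3.39 in standard and 42.6% ± 2.96 in withdrawal mice (unadjusted limma p 0.0516, adjusted p 0.939). Enriched exceeded standard by 2.59 points on that measure.

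The region 6.13 kb into Ntrk2 averaged 44.6% ± 10.6, 49.4% ± 9.90 and 55.4% ± 9.03 over its 3 sites with a value in all mice. Standard mice read 30.5% to 58.0%, enriched mice 40.1% to 62.9% and withdrawal mice 46.4% to 68.6%, and limma gave adjusted p-values of 0.948, 0.998 and 0.996. With all 8 sites, centred, enriched mice averaged 51.5%, withdrawal mice 49.2% and standard mice 34.2% (unadjusted limma p 0.0211 and 0.0414 against standard, adjusted p 0.847 and 0.978). Withdrawal minus enriched thus turned from 5.99 points over the 3 sites to -2.30 points over the 8. This region was chosen after its values were seen. At the upper gene end, 59133605 to 59133738, the 3 sites with a value in all mice averaged 88.9%, 92.1%, 96.4%, 88.3% and 97.5% in standard, 88.5%, 94.1%, 94.9%, 98.7% and 96.5% in enriched, and 91.4%, 83.7%, 91.5%, 89.4% and 90.9% in the withdrawal mice. Withdrawal was lower than enriched, a difference of -5.18 points with 4 of 5 enriched mice above every withdrawal mouse (unadjusted limma p 0.0460, adjusted p 0.996). At 58807202 to 58807253, just after the start, all 5 standard mice read 0%, and enriched and withdrawal mice reached 2.78% and 2.06% (limma adjusted p 0.892 and 0.998 against standard). The single site with the smallest p, on the minus strand at 59080965, read 79.4%, 60% and 69.2% in 3 enriched mice and 100% in all 4 withdrawal mice with a value, but also 100%, 62.5% and 100% in 3 standard mice. Withdrawal exceeded enriched there by 30.5 points (unadjusted limma p 0.00289, adjusted p 0.922). Over this site and the 1 further minus-strand site 35 bases away, the group means were 89.0% (standard), 83.1% (enriched) and 88.6% (withdrawal). The further site was thus lower in withdrawal than in enriched mice, opposite to the named site.

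Ntrk3, the TrkC receptor of neurotrophin-3 (chromosome 7, 78179986 to 78581034), had 35 sites, all inside the gene, and 2 of them with a value in all mice. Toward the upper gene end the sites were nearly unmethylated: 1.76% over the 4 at 78568946 to 78569040, 1.32% over the 7 at 78577283 to 78577410 and 1.11% over the 13 at 78578847 to 78578943. The 2 sites at 78198859 and 78198894 near the lower end averaged 89.5%, and the 3 at 78302238 to 78302266 averaged 98.5%. Over all 35 sites, centred, enriched was -0.222 points from standard (unadjusted limma p 0.866, adjusted p 0.988). Withdrawal was 2.34 points above standard and 2.56 above enriched (unadjusted limma p 0.0814 and 0.0595, adjusted p 0.939 and 0.999).

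At 78578847 on the plus strand of Ntrk3, 2187 bases inside the upper gene end, 4 standard mice read 13.04%, 18.5%, 15.9% and 6.45%, all 5 enriched mice read 0%, and the withdrawal mice read 13.5%, 0%, 0%, 0% and 0%. Standard and enriched mice did not overlap. The difference was -13.5 points, a log2 ratio difference of -2.04 ± 0.51 (SE), with an unadjusted limma p of 0.000814 and an adjusted p of 0.795 (0.511 to 0.896 over the alternatives). Leaving out each mouse in turn gave differences between -15.8 and -11.8 points. The 4 other plus-strand sites of this stretch, 30 to 61 bases further on, were at 0% in all 56 values. On the plus strand, methylation was thus read at the first site alone. The whole stretch of 13 sites on both strands had group means of 1.22% (standard), 0.828% (enriched) and 1.28% (withdrawal). Enriched mice read 0% at every plus-strand site with a value, so their mean came from minus-strand sites. The difference at 78578847 therefore did not extend to the stretch, which was not tested as a group. Of 240 member sites with at least 4 values in both groups, 1 had no overlap and means at least 10 points apart. That 1 was the site at 78578847, and 0.555% of all such sites met the rule. For withdrawal against standard 1 of 251 met this rule (0.599% of all), described for Sorcs2 below, and for withdrawal against enriched 0 of 250 (0.554% of all). Among 20 tested Ntrk3 sites 14 were higher and 4 lower in withdrawal than in standard mice, with a median difference of 3.39 points. Of the sites with unequal means 77.8% were thus higher, the highest share of the 8 genes, beside 52.6% of all tested sites. Neighbouring sites share reads, so these are not independent counts and were given no test.

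Ngfr, the p75 receptor (chromosome 11, 95568818 to 95587698, read from the minus strand), had 32 sites that averaged 9.63%, the highest at 47.1%, so none was highly methylated. The sites nearest its start at 95587698 were 772 bases away. From there inward the 4 sites at 95586885 to 95586926, the 7 at 95586546 to 95586667 and the 7 at 95586153 to 95586367 averaged 1.14%, 1.82% and 2.37%. The 4 sites at 95577745 to 95577874 in the middle of the gene averaged 27.1%, and the 3 at 95571887 to 95571936 averaged 22.9%.

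Over its 3 sites with a value in all mice, Ngfr varied more between mice of a group than 97.1% of genes. Standard mice read 52.4%, 17.1%, 36.7%, 5.19% and 28.0%, enriched mice 3.75%, 29.3%, 29.6%, 20.3% and 19.2%, and withdrawal mice 15.7%, 23.3%, 17.1%, 23.03% and 33.1%. The groups overlapped over most of their range, at 27.9% ± 18.1, 20.4% ± 10.5 and 22.4% ± 6.87 (SD, n = 5; limma adjusted p 0.939, 0.987 and 0.989 for the 3 comparisons). At 95571579 on the plus strand, standard mice read 57.1%, 3.70%, 13.6%, 0% and 37.0%, enriched mice 7.69%, 0%, 0%, 2.56% and 0%, and withdrawal mice 25%, 16.7%, 11.4%, 0% and 1.45%. The highest of these values was again that of standard mouse 1, and the groups overlapped. The enriched minus standard difference was -20.3 points, and -11.5 points without that mouse (with all mice unadjusted limma p 0.0404, adjusted p 0.892).

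Sort1, which encodes the proform co-receptor sortilin (chromosome 3, 108283974 to 108361519), had 46 sites with a mean of 16.5%. At the lower gene end the 15 sites at 108283587 to 108283898 and the 12 at 108284590 to 108284697 averaged 1.11% each, and 15 of the 46 sites were at 0% in every mouse with a value. Farther along, the 3 sites at 108338753 to 108338816 averaged 54.9% and the 4 at 108351692 to 108351759 averaged 98.0%. None of its sites had an unadjusted limma p under 0.05 in any comparison, with 30 tested.

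The 4 Sort1 sites at 108295925 to 108296037, 11.95 kb into the gene, were the group with the smallest p. Their mean was 6.77%, 6.02%, 1.61%, 5.62% and 11.5% in standard mice, 10.4%, 10.8%, 11.8%, 15.6% and 9.26% in enriched mice, and 9.06%, 5.36%, 6.36%, 8.62% and 8.53% in withdrawal mice. Every enriched mouse lay above 4 of the 5 standard mice and above all withdrawal mice. Enriched exceeded standard by 5.26 points (6.31% ± 3.53 against 11.6% ± 2.41; log2 ratio difference 0.68 ± 0.29 SE; unadjusted limma p 0.0301, adjusted p 0.856), and withdrawal was at 7.59% ± 1.63 (limma adjusted p 0.998 against standard and 0.996 against enriched). Leaving out each mouse in turn kept the difference between 4.09 and 6.57 points. Over the 7 sites with a value in all mice the gene means were 27.4% ± 6.73, 27.3% ± 10.8 and 30.5% ± 9.44, with mice from 15.4% to 44.5% (limma adjusted p 0.993, 0.983 and 0.989). The site with the smallest p, on the minus strand at 108286700, read 0%, 11.8%, 30% and 0% in 4 enriched mice and at most 5.56% and 4.35% in the standard and withdrawal mice (withdrawal minus enriched -9.57 points, unadjusted limma p 0.0820, adjusted p 0.922). Without enriched mouse 4, which read 30%, this difference was -3.05 points. The 1 further minus-strand site, 41 bases away, was at 0% in 10 of 14 values and reached 70%. Over both sites the group means were 1.21% (standard), 14.4% (enriched) and 2.31% (withdrawal), and this pair was not tested as a group.

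Sorcs2, which encodes a sortilin-family receptor that pairs with p75 (chromosome 5, 36017180 to 36398197), had 80 sites with a mean of 30.5%, and 28 of them lay between 20% and 80%, the most among the 8 genes. The 11 sites at 36398406 to 36398599, just beyond the upper gene end, averaged 3.06%. Inside the gene, low stretches such as the 6 sites at 36330897 to 36331017 (5.43%) alternated with high ones such as the 2 at 36307976 and 36308001 (93.6%) and intermediate ones such as the 4 at 36306871 to 36306946 (64.1%). Over 27 sites its mean was 20.5%, 16.5%, 18.0%, 21.6% and 20.1% in standard mice, 29.1%, 16.7%, 20.6%, 20.3% and 15.1% in enriched mice, and 19.7%, 22.9%, 12.9%, 16.8% and 21.3% in withdrawal mice. The groups overlapped, at 19.4% ± 2.04, 20.4% ± 5.42 and 18.7% ± 3.96 (SD, n = 5; limma adjusted p 0.981, 0.988 and 0.989). Of 78 tested sites 50 were lower and 27 higher in enriched than in standard mice, so 35.1% of those with unequal means were higher, beside 50.7% of all tested sites. The share over the sites of all 8 genes was 45.6%, and the other genes ran from 38.9% (Ntf5) to 58.1% (Ntrk2). Here too neighbouring sites share reads, and the counts were given no test. The median difference was -2.92 points, although the mean over the 27 sites with a value in all mice was higher by 1.01 points (-1.18 points without enriched mouse 1).

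The 5 Sorcs2 sites at 36313791 to 36313903 averaged 15.3%, 8.78%, 11.4%, 12.2% and 6.74% in standard mice, 6.54%, 2.04%, 13.9%, 0% and 0% in enriched mice, and 6.97%, 13.9%, 6.04%, 6.22% and 10.7% in withdrawal mice. In the enriched group 4 of 5 mice lay below every standard mouse and 1 lay above 4 of them. Enriched minus standard was -6.38 points (10.9% ± 3.29 in standard, 4.51% ± 5.92 in enriched; log2 ratio difference -1.01 ± 0.39 SE; unadjusted limma p 0.0180, adjusted p 0.846), and leaving out each mouse in turn gave -8.74 to -5.25 points. The site of this group on the minus strand at 36313867 differed from this group mean. It read 0%, 0%, 0%, 5.06% and 0% in standard mice, 20.5%, 0%, 3.85%, 0% and 0% in enriched mice, and 15.4%, 11.9%, 13.04%, 7.81% and 18.0% in withdrawal mice. Every withdrawal mouse lay above every standard mouse, by 12.2 points on average (log2 ratio difference 1.82 ± 0.55 SE, unadjusted limma p 0.00362, adjusted p 0.911). The plus-strand site of the same CpG, at 36313866, was at 0% in all standard and withdrawal mice and at most 1.79% in an enriched mouse. The other named groups were the 5 sites at 36265727 to 36265798, at 21.7% ± 16.9, 14.97% ± 13.6 and 15.6% ± 9.52, and those beyond the upper gene end, at 3.82% ± 1.26, 3.98% ± 1.96 and 4.14% ± 0.825 over 4 sites (limma adjusted p of at least 0.941 in each comparison of both).

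**Figure D4:**
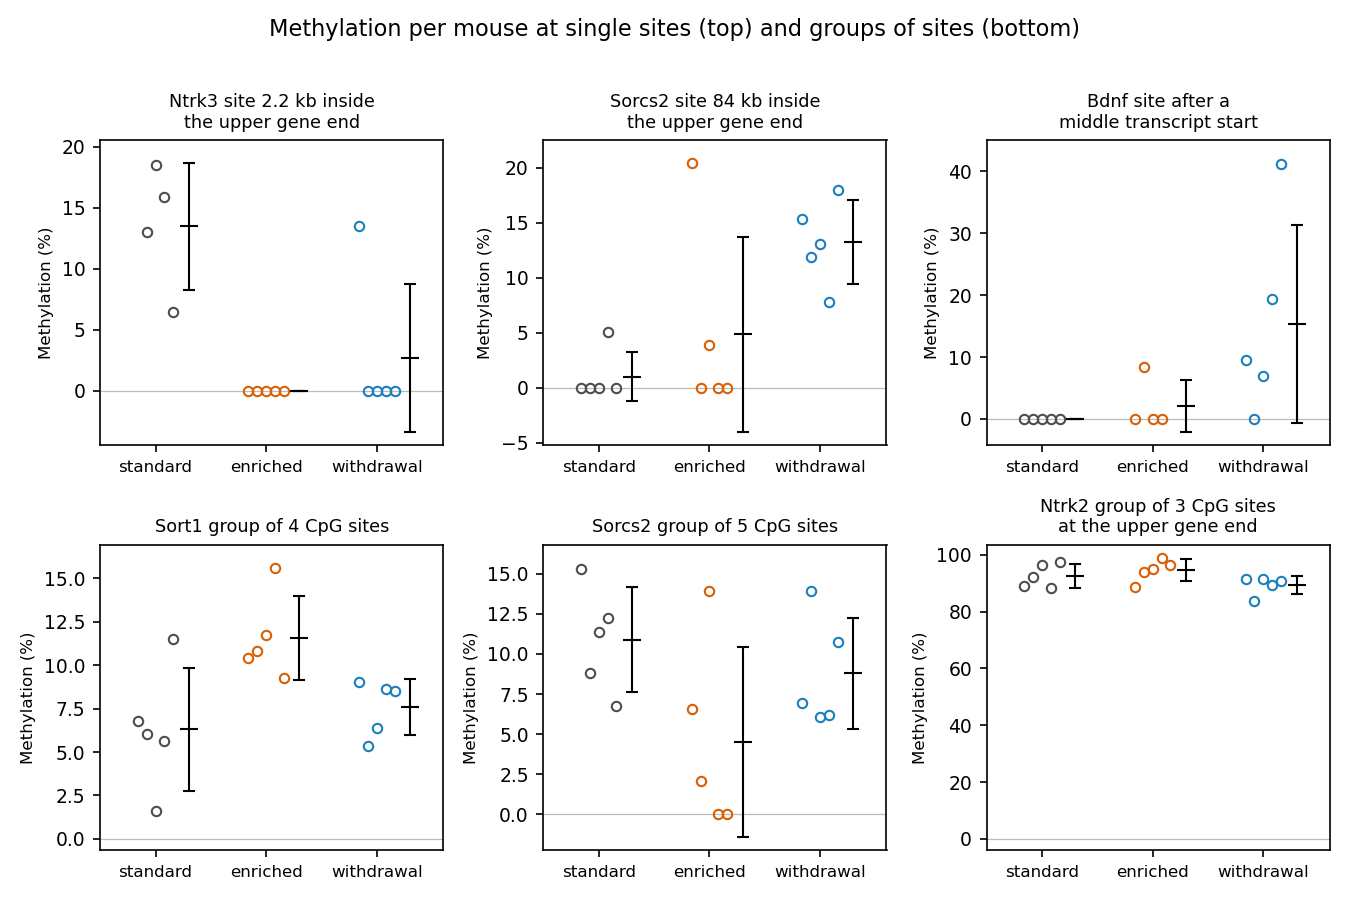
Methylation (%) of each mouse (circles) with the group mean and SD (bars) at 3 single sites (top: Ntrk3 at 78578847, Sorcs2 at 36313867, Bdnf at 109693291) and for the mean of 3 groups of sites (bottom: Sort1, Sorcs2, Ntrk2). Standard and enriched mice do not overlap at the Ntrk3 site, nor standard and withdrawal mice at the Sorcs2 site; the other panels overlap for standard against the other groups.

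**Figure D5:**
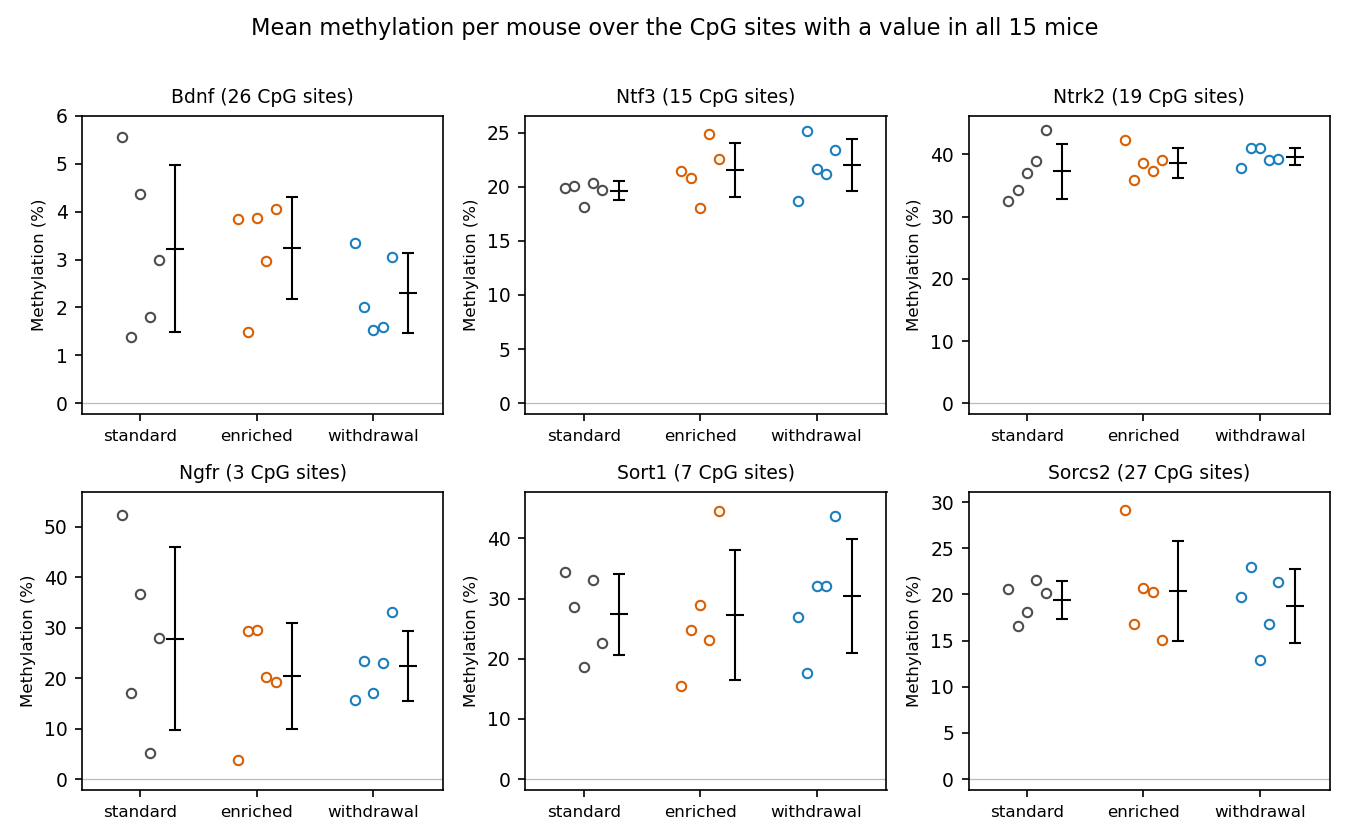
Mean methylation (%) per mouse (circles) over the sites with a value in all 15 mice, with the group mean and SD (bars), for the 6 genes with at least 3 such sites. In each gene the mice of the 3 groups overlap.

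Between mice, the 80 sites at 20% to 80% had a mean SD of 25.2, 22.8 and 20.2 points in standard, enriched and withdrawal mice, beside 23.2, 22.9 and 20.2 over 47159 such sites of all genes. Among the 6 genes with a gene mean, Bdnf varied less within groups than most genes (mean SD 1.22 points, 9.14th percentile of all genes), at a level of 2.92% (21.2nd percentile), while Sort1 (8.98 points, 92.4th percentile) and Ngfr varied more. Ngfr and Sort1 also rested on the fewest sites, 3 and 7. Over the 15 mice, with group means removed, the gene among 9261 whose mean ran most like each of the 6 was found by Pearson correlation. It was Rasgrp3 for Bdnf (r = 0.845), Cdc20b for Ntf3 (0.807), Tmco6 for Ntrk2 (0.898), Hoxb9 for Ngfr (0.865), Atp6v0a2 for Sort1 (0.867) and Tcf25 for Sorcs2 (0.894). The highest of so many correlations over 15 mice is large by selection. Whether these values exceed what selection alone gives was not tested, so they are a description only.

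The other genes of the pathway, from proform proteases and Trk adaptors to the kinases and transcription factors downstream, formed a list of 67, of which 40 had enough sites. limma called 0 of the 40 every time, and 2, 2 and 3 had an unadjusted p under 0.05, beside 5.88%, 5.07% and 4.6% of all genes; the median difference was 0.91 points for enriched and 0.29 for withdrawal against standard, beside 0.08 and 0.31 over all genes. The smallest p for enriched against standard belonged to Nras, a small GTPase downstream of Trk receptors, at 0.333% ± 0.745 in standard and 4.45% ± 4.80 in enriched mice, where 1 enriched mouse was at 0% and the others reached 11.9% (unadjusted limma p 0.0238, adjusted p 0.819). For withdrawal it belonged to Sorl1, another receptor of the sortilin family. Standard mice read 35.1%, 33.2%, 35.7%, 25.9% and 25.6%, enriched mice 23.8% to 38.6%, and withdrawal mice 32.6%, 45.2%, 39.4%, 37.8% and 40.6%, so that 4 of 5 withdrawal mice lay above every standard mouse. The difference from standard was 8.04 points (unadjusted limma p 0.0344, adjusted p 0.968).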

How the data were processed

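RRBS was run on 15 mice, 5 per housing group, grouped by their housing label. Per the labels' protocols, DNA of dissected dentate gyrus was made into libraries with a commercial RRBS kit. The submitters' processing notes name Trim Galore 0.4.0, cutadapt 1.8.1, Bismark 0.16.1, methylKit 1.5.2 and build mm10, with no parameters. The authors deposited a percent methylation value for each cytosine, strand and mouse without coverage, so no coverage minimum could be set and a count test could not be used. Each CpG site had 3 or more values per group. The table runs through the chromosomes more than once; its first run, 455836 of 2918114 rows, was taken as the CpG sites, and all 40070 of its sites that lie in RefSeq start windows fall on a CG. The other 2462278 rows were not used here.

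Genes came from RefSeq on GRCm38.p6, the same build. From each percentage log2((percent + 5)/(100 - percent + 5)) was computed, and limma 3.58.1 (R 4.3.3) fitted the 3 group means over all 15 mice with a variance trend, two-sided, with Benjamini-Hochberg adjustment over the whole table and a threshold of 0.05. Every log2 ratio difference is on that scale. The added 5 points make changes near 0% and 100% smaller than the same ratio without them would. A given difference in points still weighs more near 0% and 100% than in the middle of the range. Groups of sites and genes needed at least 3 sites with a value in all mice and a range of at least 1 point. Sites with missing values were fitted on the mice that had one. The fits were tested on simulated data. The members and lists were chosen with earlier results of these data known. For each gene the text names the site with the smallest p, sites whose groups do not overlap (at least 4 values each, means at least 10 points apart), the groups of sites with the smallest p, the most complete sites and the nearest to a gene start, and the most correlated gene. For Sort1 and Sorcs2, which had no annotated start, the tested group nearest to either gene end was taken instead. Other regions give the methylation map of each gene. Alternatives are listed in the closing section. The labels name no library or sequencing batch, and animal numbers pair nothing: deviations of same-numbered mice correlated between -0.0179 and 0.0192.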

Additional observations from a re-analysis of the deposited data

Results flagged for a closer look

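Among 68 sets of 4 or 5 values (each housing group at each named site, group of sites and gene mean), 12 held a mouse far from the rest of its housing group. For normally distributed values chance flags about 1 in 20. Where all other mice read 0%, any single value above 0% is flagged, so the 12 cannot be set against that share. In Bdnf these were standard mouse 1 at 10.9% in the group at 109692717 (others 0.794% to 2.27%) and at 3.87% in the group at 109676029 (others up to 0.909%), and enriched mouse 2 at 8.33% at the site 109693291 (others 0%). In Ntf3 they were withdrawal mouse 5 at 17.5% in the group at 126162569 (others up to 4.04%) and enriched mouse 4 at 5.88% in the group at 126162986 (others 0%). In Ntf5 it was enriched mouse 4 at 6.85% at 45413252, and in Ntrk3 withdrawal mouse 1 at 13.5% at 78578847, each with the others at 0%. In the Ntrk2 group at 59133605 withdrawal mouse 2 was low, at 83.7% (others 89.4% to 91.5%). At the Sort1 site 108286700 standard mouse 3 read 5.56% and withdrawal mouse 4 read 4.35%, with the others of their housing group at 0%. At the Sorcs2 site 36313867 standard mouse 4 read 5.06% (others 0%) and enriched mouse 1 read 20.5% (others up to 3.85%).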

How the results depend on the processing

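No member site, group of sites or gene, and no other pathway gene, was called by limma in any comparison under any alternative run: an offset of 1 point, the percent scale, no variance trend, no range filter, only sites with a value in all mice, joining sites up to 300 bases, at least 5 sites, 2 kb flanks, all sites centred, the replicate block, and leaving out each mouse in turn. Over the whole table, calls differed from 0 without the range filter (62, 56 and 65 sites for the 3 comparisons in the order of the text), without the variance trend (1, 0 and 1 sites), with the offset of 1 point (1 group of sites, enriched minus standard) and on leaving out single mice (up to 2 groups of sites and 4 genes), none of them in these 8 genes; the pathway list was tested as gene means only. Since nothing was called here, this does not show stability. The number in the sample titles marks no shared animal or batch, and with it as a block (the replicate block) 0 member sites were called, with 18, 13 and 14 of 330 at an unadjusted p under 0.05. With all sites centred, 16 of 18 differences between gene means and 13 of 33 between the groups of sites described moved by over 1.5 times, and 4 and 5 of them turned sign; the cause was not tested. For enriched minus standard these became -0.0602 points for Bdnf, -1.19 for Sorcs2, 0.402 for the Bdnf group at 109692717, -0.806 for the Ntrk2 group at 59133605 and -1.27 for the Sorcs2 group at 36398406. For withdrawal minus enriched they became -0.993 for Ntf3, 0.462 for Sorcs2 and -2.30 for the Ntrk2 group at 58812604, and for withdrawal minus standard 0.0403 for the Bdnf group at 109692717. Leaving out each mouse in turn moved 28 of 36 named differences by over 1.5 times and turned the sign of 12, whose ranges follow. For enriched minus standard they were -0.440 to 0.603 for Bdnf, -4.40 to 2.86 for Sort1, -1.18 to 2.32 for Sorcs2 and -12.5 to 0.152 for the Sorcs2 group at 36265727. For withdrawal minus standard they were -11.1 to 0.697 for Ngfr (the highest without standard mouse 1), -0.267 to 6.24 for Sort1, -1.69 to 0.809 for Sorcs2 and -0.0453 to 0.716 for the Sorcs2 group at 36398406. For withdrawal minus enriched they were -0.386 to 1.32 for Ntf3, -2.15 to 4.30 for Ngfr, -0.158 to 7.44 for Sort1 and -2.96 to 0.537 for Sorcs2. The unknown depth, the strand differences and the missing values limit every single-site value.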
